A study of Mus musculus with 6 samples.

Results

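The ErbB receptors and their ligands were examined in corneal epithelium of mice that lack *Rela*, which encodes the RelA subunit of NF-κB, in epithelial cells. The members were 10 genes, taken by symbol from the deposited gene table. They were 3 receptor genes (*Egfr*, *Erbb2*, *Erbb3*), 6 genes for ligands of EGFR (*Areg*, *Ereg*, *Epgn*, *Btc*, *Hbegf*, *Tgfa*) and the neuregulin gene *Nrg1*. All 10 were found among the 17866 genes of the table, and all 10 passed the filter on low counts, which kept 13305 genes. Bulk RNA-seq had been run on the corneal epithelium of 6-month C57BL/6 animals, as 3 wild-type (WT) libraries and 3 libraries labelled *Rela*-/- (KO). Per the study's methods the KO mice were *Krt14-Cre; Rela* f/f, and the controls were of the same age. Whether the controls carried Cre or the floxed allele, and whether mice were pooled, is not given in the sources used here. *Krt14-Cre* acts in keratin 14 lineage cells, which include those of the conjunctiva, the skin and other epithelia besides the cornea, so that the deletion was neither confined to the cornea nor timed to adulthood.

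EGFR and its relatives ErbB2, ErbB3 and ErbB4 are receptor tyrosine kinases that pair up when a ligand binds. The ligands of EGFR are made as membrane-anchored precursors and released by ADAM proteases, neuregulins bind ErbB3 and ErbB4, and ErbB2 has no known ligand of its own but partners the others. Signals pass through RAS and ERK, PI3K and AKT, PLCγ and STAT proteins, and in the corneal epithelium EGFR signalling is known for driving migration and proliferation in wound closure.

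In KO, mRNA of 2 receptors and of neuregulin 1 was lower and mRNA of 2 EGFR ligands was higher than in WT. *Egfr* fell to 51.2% of the WT level, *Erbb3* to 71.2% and *Nrg1* to 21.8%, while *Areg* rose 2.91-fold and *Ereg* rose 2.14-fold. The other 5 members, *Erbb2*, *Epgn*, *Btc*, *Hbegf* and *Tgfa*, did not pass the test. With edgeR's quasi-likelihood test and Benjamini-Hochberg adjustment over all genes tested, at a threshold of 0.05, 2 members were thus higher, 3 lower and 5 not called. Calls were frequent among genes at large, as 62.0% of all genes tested passed in either direction, 31.8% as higher and 30.2% as lower, so that the number of members called is not a result about the members. The members' median log2 fold change was 0.06, and that of all genes tested was 0.01. The study's stricter rule, an adjusted p of 0.001 or less and at least a 2-fold change, was applied to edgeR's values. It called *Nrg1* alone among the members and 19.8% of all genes, 11.6% as higher and 8.24% as lower. With DESeq2 in place of edgeR, *Areg* (log2 fold change 1.55, adjusted p = 7.62e-06, DESeq2) and *Ereg* (1.11, adjusted p = 0.000186, DESeq2) met the rule too.

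The libraries were alike in depth, with 20158404 to 20880347 estimated counts (reads below) each, and no pair of libraries held the same values. *Rela*, the targeted gene, had 1871, 1844 and 1855 reads in WT against 318, 223 and 313 reads in KO, or 16.5% of the WT level in CPM, counts scaled to a common library size (adjusted p = 2.74e-06, edgeR). The mRNA levels of cell type markers moved with genotype. The summed level of 7 corneal epithelial markers was 68435 to 69434 CPM in WT and 11991 to 14743 CPM in KO, with *Krt12* and *Pax6* present in every library. The 6 conjunctival and goblet cell markers summed to 1755 to 2754 CPM in WT and 51949 to 66752 CPM in KO. The keratin genes *Krt13* and *Krt4* made up nearly all of that sum, with means of 38248 and 21745 CPM in KO. The means of *Muc5ac*, *Spdef*, *Agr2* and *Tff1* in KO were 6.19, 8.22, 5.23 and 0.268 CPM. The 6 epidermal markers summed to 15.1 to 20.3 CPM in WT and 11563 to 23959 CPM in KO. *Krt2*, like the goblet cell genes *Muc5ac* and *Tff1*, was at 0 in every WT library. In KO *Krt2* had 3, 1 and 2 counts, *Tff1* 7, 1 and 8, and *Muc5ac* 141, 15 and 214. *Krt2* and *Tff1* were not tested. The part of these marker shifts in the results on the members was not tested. In bulk RNA fewer cells of a type and less RNA per cell cannot be told apart. Nor can other cells be told apart from changed expression in the same cells.

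The promoters of members that moved apart are shown first, as the 250 bases before the annotated start in RefSeq's GRCm38.p6, 5′ to 3′ on the strand of the gene. *Egfr* (chr11:16751953-16752202, + strand) stands for the receptor that fell, *Areg* (chr5:91139349-91139598, + strand) for the ligand with the larger rise, and *Epgn* (chr5:91027267-91027516, + strand) for a neighbour of *Areg* whose difference did not pass. Capitals mark matches to the motifs searched:
Egfr: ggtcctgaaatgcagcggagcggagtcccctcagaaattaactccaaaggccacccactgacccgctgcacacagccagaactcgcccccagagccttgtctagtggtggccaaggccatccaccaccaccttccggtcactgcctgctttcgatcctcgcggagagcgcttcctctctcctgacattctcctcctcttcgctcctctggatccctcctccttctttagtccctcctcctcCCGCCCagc
Areg: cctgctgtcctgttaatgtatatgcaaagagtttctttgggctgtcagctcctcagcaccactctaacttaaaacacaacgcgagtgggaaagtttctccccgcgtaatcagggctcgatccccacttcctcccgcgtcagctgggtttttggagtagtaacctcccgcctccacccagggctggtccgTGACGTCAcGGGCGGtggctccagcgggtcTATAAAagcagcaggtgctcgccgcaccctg
Epgn: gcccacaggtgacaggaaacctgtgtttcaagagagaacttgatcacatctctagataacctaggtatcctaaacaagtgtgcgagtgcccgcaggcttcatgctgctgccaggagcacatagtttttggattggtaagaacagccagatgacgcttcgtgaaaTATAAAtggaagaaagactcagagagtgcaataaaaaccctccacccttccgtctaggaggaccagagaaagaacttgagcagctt
Of the 10 members, 6 had an entry among the RefSeq promoters, namely *Egfr*, *Erbb2*, *Areg*, *Epgn*, *Btc* and *Tgfa*, and there was none for *Ereg*, *Erbb3*, *Nrg1* and *Hbegf*. The motifs searched on both strands were the NF-κB motif, the AP-1 motif TGANTCA, the cAMP response element TGACGTCA, the GC box GGGCGG and the TATA motif TATAAA, none of which contains another. The *Areg* window held a cAMP response element that begins 61 bases before the start, a GC box at 52 and a TATA motif at 31, in a sequence of 57.2% GC. The *Egfr* window, of 60.8% GC, held a GC box on the opposite strand at 9 bases and no TATA motif, and the *Epgn* window, of 46.8% GC, held a TATA motif at 86 bases. Of 32851 windows of the same length in RefSeq, 1.55% held the cAMP response element, 32.7% the GC box and 12.4% the TATA motif. The NF-κB motif was found in 7.25% of windows and the AP-1 motif in 6.75%, and neither stood in the windows of the 6 members, which says only that these letters are not in these 250 bases.

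*Egfr* (gene 13649, chr11:16752203-16918159, + strand; the table's chromosomes are those of GRCm38) encodes the receptor for all 6 of the EGFR ligands here. Its estimated counts were 6997, 6401 and 6139 in WT against 3016, 3213 and 3038 in KO. All 3 KO libraries lay well below every WT library and the spread within each genotype was small. The level fell from 303 ± 15.6 to 155 ± 5.30 CPM (mean ± SD, n = 3 per genotype here and below; CPM scaled with TMM, edgeR's correction of the library totals). The log2 KO/WT ratio was -0.97 (standard error 0.09, adjusted p = 4.12e-05, edgeR). The groups of 5 of the 10 members did not overlap in CPM, beside 68.6% of all genes tested, and *Egfr* was among them.

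*Erbb3* (gene 13867, chr10:128567353-128589501, - strand) encodes a receptor that binds neuregulins but has little kinase activity of its own. Its counts were 3337, 3027 and 3302 in WT against 2430, 1788 and 2164 in KO, so that again no KO library reached a WT library. The level fell from 150.0 ± 8.15 to 107 ± 16.7 CPM, a log2 KO/WT ratio of -0.49 (standard error 0.12, adjusted p = 0.00766, edgeR).

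*Erbb2* (gene 13866, chr11:98412484-98437716, + strand), the preferred partner of the other receptors, had 4849, 3831 and 4573 reads in WT against 4022, 2816 and 3113 reads in KO. The highest KO library lay above the lowest WT library, and the groups overlapped. The levels were 206 ± 23.9 CPM in WT and 167 ± 32.8 CPM in KO, and the log2 KO/WT ratio of -0.30 (SE 0.15) did not pass (adjusted p = 0.116, edgeR). Without KO library 1, the KO library with the highest level, it was -0.47 and passed (adjusted p = 0.0129, edgeR). It also passed as lower under 4 other alternatives, all of which kept every library. The gene shares 9 exon bases with *Mien1* on the opposite strand, and no source here says if reads were counted by strand.

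**Figure D1:**
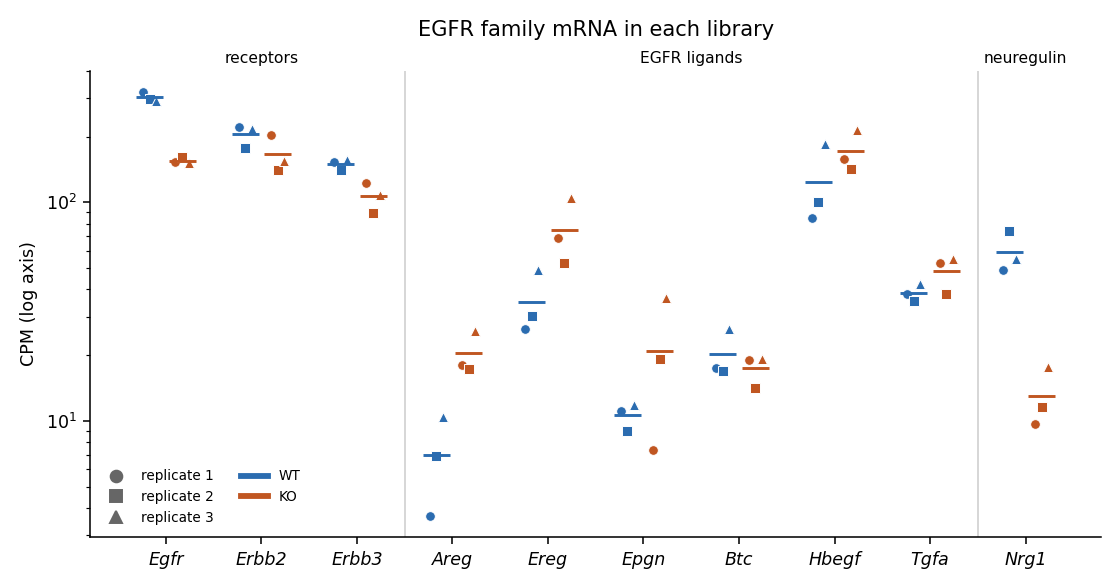
Level of each member in every library, in CPM after TMM scaling on a log axis, with WT in blue and KO in orange. Points are libraries (circle, square and triangle for replicates 1, 2 and 3) and horizontal bars are group means; the WT and KO points separate for *Egfr*, *Erbb3*, *Areg*, *Ereg* and *Nrg1* and overlap for the other 5.

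Among the EGFR ligands, *Areg* encodes amphiregulin, which binds EGFR only (gene 11839, chr5:91139599-91148432, + strand). It had 80, 149 and 220 reads in WT against 356, 343 and 519 reads in KO. The lowest KO library stood above the highest WT library, although the WT libraries differed widely among themselves. The level rose from 7.0 ± 3.38 to 20.4 ± 4.78 CPM, with a log2 KO/WT ratio of 1.54 (standard error 0.33, adjusted p = 0.00384, edgeR).

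*Ereg* encodes epiregulin, a ligand of EGFR and ErbB4 (gene 13874, chr5:91074617-91093649, + strand). Its counts were 572, 648 and 1032 in WT against 1350, 1049 and 2096 in KO. The groups did not overlap, but only just, since the highest WT library was at 48.9 CPM and the lowest KO library at 52.6 CPM. The level rose from 35.1 ± 12.1 to 75.1 ± 26.6 CPM, with a log2 KO/WT ratio of 1.10 (standard error 0.29, adjusted p = 0.0106, edgeR). Of its 4128 exon bases, 141 are shared with *Gm19610* on the opposite strand, so that reads in those bases could not be told apart without strand.

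*Epgn* encodes epigen, a further ligand of EGFR (gene 71920, chr5:91027517-91035212, + strand). The counts were 243, 194 and 249 in WT against 145, 383 and 729 in KO. The KO libraries ranged from below every WT library to far above them. The levels were 10.6 ± 1.44 CPM in WT and 21.0 ± 14.6 CPM in KO, with a log2 KO/WT ratio of 0.98 (standard error 0.46, adjusted p = 0.0985, edgeR). The value rested on both KO library 1 and KO library 3. Without KO library 1, the lowest, the log2 fold change was 1.38 and passed (adjusted p = 0.00383, edgeR), and without KO library 3, the highest, it was 0.32 (adjusted p = 0.475, edgeR).

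*Btc* encodes betacellulin, which binds EGFR and ErbB4 (gene 12223, chr5:91357261-91402994, - strand). Its counts were 382, 365 and 559 in WT against 375, 283 and 387 in KO. The groups overlapped, with a single high WT library. The levels were 20.3 ± 5.33 CPM in WT and 17.5 ± 2.86 CPM in KO, and the log2 KO/WT ratio was -0.22 (standard error 0.20, adjusted p = 0.373, edgeR). It was 0.03 without WT library 3, and it passed under none of the 17 alternatives.

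*Hbegf* encodes heparin-binding EGF-like growth factor, a ligand of EGFR and ErbB4 (gene 15200). It had 1855, 2166 and 3900 reads in WT against 3115, 2824 and 4316 reads in KO. The third WT library lay above 2 of the 3 KO libraries. The levels were 123 ± 53.6 CPM in WT and 171 ± 38.6 CPM in KO, with a log2 KO/WT ratio of 0.47 (standard error 0.28, adjusted p = 0.176, edgeR). Without WT library 3 the log2 fold change was 0.90 and passed (adjusted p = 0.00572, edgeR).

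*Tgfa* encodes transforming growth factor α, which binds EGFR only (gene 21802, chr6:86195227-86275743, + strand). Its counts were 831, 759 and 898 in WT against 1039, 759 and 1100 in KO. The second KO library lay within the WT range, and the other two lay above it. The levels were 38.6 ± 3.64 CPM in WT and 48.5 ± 9.10 CPM in KO, with a log2 KO/WT ratio of 0.33 (standard error 0.15, adjusted p = 0.0844, edgeR). Without KO library 2 it was 0.47 and passed (adjusted p = 0.00757, edgeR). Of its exon bases, 118 are shared with *Gm43917* on the opposite strand.

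*Nrg1* encodes neuregulin 1, a ligand of ErbB3 and ErbB4 (gene 211323, chr8:31809465-33151781). It showed the lowest fold change of the 10 members. The counts were 1070, 1593 and 1164 in WT against 191, 231 and 353 in KO, and the highest KO library was far under the lowest WT library. The level fell from 59.4 ± 13.1 to 12.9 ± 4.13 CPM, with a log2 KO/WT ratio of -2.20 (standard error 0.24, adjusted p = 9.52e-05, edgeR). The table lists 56 transcripts for the gene, places it on the + strand where GENCODE M21 has the - strand, and 482 of its exon bases are shared with the long non-coding RNA gene *Gm26578* on the opposite strand.

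**Figure D2:**
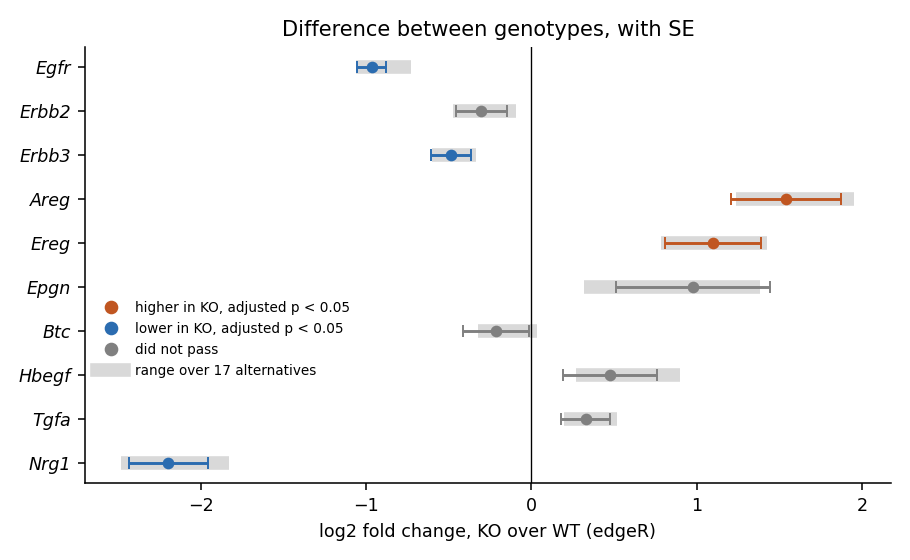
log2 fold change of KO over WT for each member, from edgeR (points, with bars of 1 SE) and its range over the 17 alternatives (grey bands). *Areg* and *Ereg* lie to the right of 0 and *Egfr*, *Erbb3* and *Nrg1* to the left in every alternative, and the band of *Btc* reaches across 0.

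Levels of different genes were compared on FPKM, read counts scaled by gene length and, by the authors, by library total only. In WT the order of mean FPKM was *Egfr* (54.0 ± 3.70), *Hbegf* (53.3 ± 22.0), *Erbb2* (42.1 ± 5.05) and *Erbb3* (38.2 ± 2.02), followed by *Tgfa* (8.69 ± 0.71), *Nrg1* (8.68 ± 2.18), *Ereg* (8.65 ± 2.81), *Btc* (7.24 ± 1.76), *Epgn* (6.48 ± 0.85) and *Areg* (6.00 ± 2.79). The receptors and *Hbegf* thus stood apart from the remaining ligands, and the step from *Erbb3* to *Tgfa* was the only one between neighbours whose library ranges did not overlap. In KO the order was *Hbegf* (69.4 ± 15.0), *Erbb2* (31.8 ± 5.73), *Egfr* (26.3 ± 1.29), *Erbb3* (25.4 ± 3.51), *Ereg* (17.3 ± 5.98), *Areg* (16.4 ± 3.73), *Epgn* (11.9 ± 8.23), *Tgfa* (10.2 ± 1.74), *Btc* (5.83 ± 0.85) and *Nrg1* (1.73 ± 0.68). *Hbegf* then lay above all receptors, with no overlap of its libraries with those of *Erbb2*, and the steps from *Tgfa* to *Btc* and from *Btc* to *Nrg1* were also free of overlap. *Areg*, last in WT, came sixth in KO, and its KO libraries overlapped those of *Ereg* and *Epgn*.

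The balance of ligand to receptor mRNA was described in each library, with no test because it is a score over chosen genes. The summed FPKM of the 6 EGFR ligands was 69.5, 76.8 and 125 in WT and 114, 109 and 170 in KO. The mean of the sum was 1.45 times higher in KO, with overlapping groups. Divided by the FPKM of *Egfr*, the sum was 1.2, 1.44 and 2.46 in WT and 4.42, 3.95 and 6.71 in KO, a mean ratio of 1.70 ± 0.67 against 5.03 ± 1.48. These groups did not overlap, and both the lower *Egfr* and the higher ligands entered the ratio. *Erbb2* over *Egfr* was 0.80, 0.69 and 0.85 in WT and 1.49, 0.99 and 1.17 in KO on FPKM, so that *Erbb2* was the lower of the pair in each WT library and the higher in 2 of the 3 KO libraries.

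The make-up of the ligand pool also differed. *Hbegf* gave most of the summed FPKM in both genotypes, with 54.1%, 57.0% and 62.9% in WT and 55.2%, 53.6% and 51.1% in KO. The share from *Areg* was 4.63%, 7.79% and 7.04% in WT and 12.5%, 12.9% and 12.2% in KO, and that from *Ereg* was 9.53%, 9.73% and 9.50% against 13.6%, 11.4% and 14.1%. Both shares were higher in every KO library than in any WT library. The share from *Btc* was 9.18%, 7.91% and 7.42% in WT and 5.48%, 4.43% and 3.77% in KO, lower in every KO library, although the test on *Btc* itself did not pass.

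**Figure D3:**
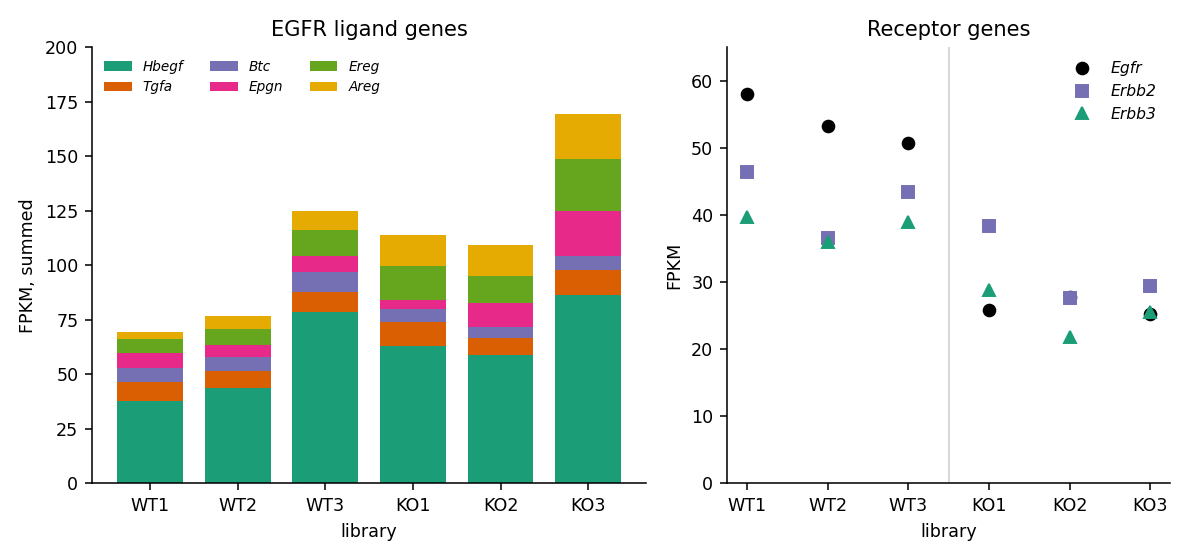
Deposited FPKM of the 6 EGFR ligands, stacked (left), and of the 3 receptors (right) in each of the 6 libraries, on linear axes that start at 0. *Hbegf* is the tallest layer in every library, and *Egfr* is the highest receptor in each WT library but lies under *Erbb2* in KO libraries 1 and 3 and coincides with it, hidden behind its point, in KO library 2.

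The ligands shared their highest library within each genotype, a pattern seen after the values and given without a test. All 6 EGFR ligands were highest in WT library 3 among the WT libraries and in KO library 3 among the KO libraries. Of all genes tested, 34.1% were highest in WT library 3 and 31.0% in KO library 3. Of the 3 receptors, 1 was highest in WT library 3 and 0 in KO library 3. Of 15 immediate early and later target genes, which growth factor signals switch on within minutes to hours, 10 were highest in WT library 3 and 11 in KO library 3. The library totals were 20874700 and 20880347 in these libraries against 20158404 to 20791782 in the others. The libraries were ranked on CPM, which is already scaled to the library totals, and any further part of depth in this pattern was not tested.

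**Figure D4:**
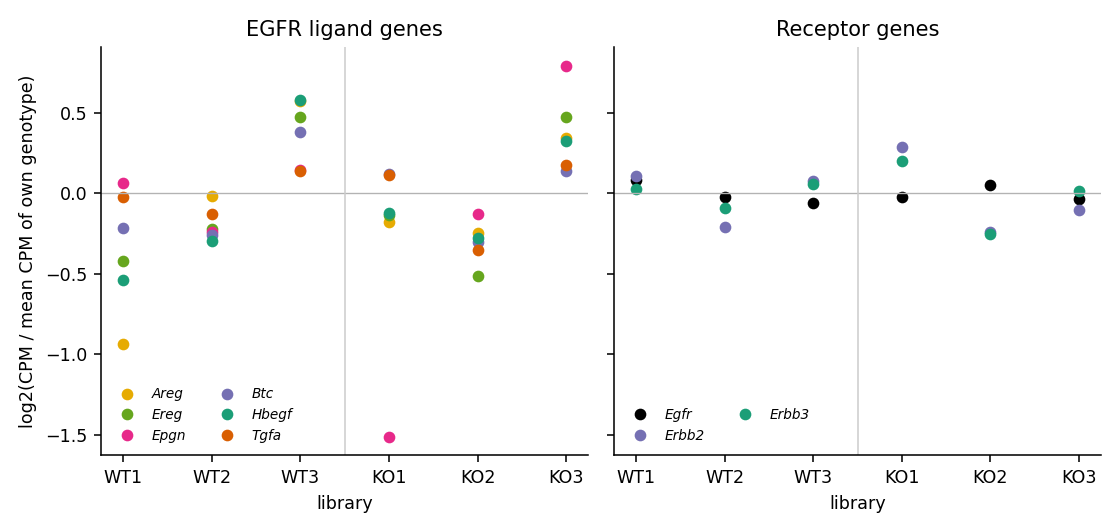
log2 of the CPM of each EGFR ligand (left) and receptor (right) in every library over the mean CPM of its own genotype, with 1 point per gene and library and 0 marking that mean. All 6 ligands are highest in library 3 of both genotypes, whereas 1 receptor is highest in WT library 3 and 0 in KO library 3.

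The other genes of the pathway were taken as 81 genes in lists by role, of which 76 were tested, 17 were higher, 24 lower and 35 not called. Their median log2 fold change was -0.07, beside 0.01 for all genes tested. As 62.0% of all genes tested were called, 31.8% as higher and 30.2% as lower, the numbers called here and in each list below are not results about the lists. The remaining receptor and ligand genes numbered 5, of which 3 were tested, 0 were higher and 2 lower. *Erbb4*, the receptor shared by neuregulins and several EGFR ligands, had 1, 1 and 0 reads in WT against 1, 0 and 1 reads in KO and was not tested, and the neuregulin gene *Nrg3* had at most 3 counts in any library. At this depth of 20158404 counts or more, 3 counts correspond to 0.137 to 0.152 CPM. *Nrg2*, another neuregulin gene, had 588, 441 and 507 reads in WT against 60, 55 and 72 reads in KO and fell to 13.1% of the WT level (log2 KO/WT ratio -2.93 with standard error 0.16, adjusted p = 2.83e-06, edgeR). *Nrg1* and *Nrg2* were thus both lower in each KO library than in any WT library, and *Nrg4*, with 26 to 32 counts in WT and 12 to 27 in KO, did not pass (adjusted p = 0.16, edgeR). It passed without KO library 2, at a log2 fold change of -1.14. *Egf*, which encodes epidermal growth factor, had 119, 103 and 116 reads in WT against 85, 70 and 67 reads in KO (log2 KO/WT ratio -0.50 with standard error 0.18, adjusted p = 0.0379, edgeR). That call was lost under 7 of the 17 alternatives, among them without WT library 1 or 3 and without KO library 2 or 3, with adjusted p of 0.0963 to 0.116 in edgeR, which left 1 gene of the list called lower, or 2 without KO library 2, where *Nrg4* passed.

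Ligand shedding and export were represented by 12 genes, of which 10 were tested, 2 higher and 3 lower, with a median log2 fold change of 0.04. *Adam17*, the main sheddase of several EGFR ligands, had 2184, 2108 and 2090 reads in WT against 1916, 2217 and 2055 reads in KO, overlapping ranges with no call (adjusted p = 0.527, edgeR; named for its role after its values were seen). *Adam10*, which sheds betacellulin and EGF, rose by 0.31 on the log2 scale (standard error 0.08, adjusted p = 0.00741, edgeR), a call lost by a small margin in limma on FPKM at either pseudocount. *Adam19*, a low gene of 5, 2 and 3 reads in WT against 34, 19 and 36 reads in KO, rose by 3.21 on the log2 scale (standard error 0.45, adjusted p = 0.000385, edgeR). *Rhbdf1*, which encodes the inactive rhomboid iRhom1 that escorts ADAM17, fell by 0.75 on the log2 scale (standard error 0.12, adjusted p = 0.000816, edgeR). *Rhbdl2*, a rhomboid protease gene, fell by 0.39 (standard error 0.13, adjusted p = 0.0255, edgeR), a call lost without KO library 1 or 3 or WT library 2 or 3. Without KO library 3 the list held 1 lower gene.

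In the adaptor and RAS to ERK list, 17 of 17 genes were tested, 3 were higher, 4 lower and 10 not called, with a median log2 fold change of -0.07. *Gab2*, a docking protein gene, rose by 2.17 on the log2 scale (standard error 0.52, adjusted p = 0.00637, edgeR) from 8, 30 and 9 counts in WT to 96, 46 and 55 in KO. *Sos2*, an exchange factor for RAS, fell by 0.69 (standard error 0.09, adjusted p = 0.000306, edgeR), and *Braf*, a kinase above MEK, fell by 0.73 (standard error 0.11, adjusted p = 0.00064, edgeR). *Hras* passed at the margin as higher (log2 KO/WT ratio 0.29 with standard error 0.11, adjusted p = 0.0499, edgeR), with overlapping groups, and lost the call under 12 of the 17 alternatives, among them without KO library 1 or 2 or WT library 1 or 2. The list held 1 higher gene without KO library 2 or WT library 1. In the list of other branches, 11 of 11 genes were tested, 1 was higher and 5 lower, with a median of -0.30. *Src*, a kinase that acts with EGFR, fell to 42.4% of the WT level (log2 KO/WT ratio -1.24 with standard error 0.11, adjusted p = 3.54e-05, edgeR), and *Stat5a*, a transcription factor gene, fell by 0.71 (standard error 0.12, adjusted p = 0.000905, edgeR). *Akt2*, a kinase of the PI3K branch, fell by 0.30 (standard error 0.10, adjusted p = 0.0254, edgeR) and *Plcg1*, phospholipase Cγ, rose by 0.45 (standard error 0.15, adjusted p = 0.0269, edgeR). Each of these calls was lost under 6 alternatives, among them for *Akt2* the removal of each library except KO library 1, and for *Plcg1* the removal of KO library 1 or WT library 2 or 3, which gave 0.28, 0.45 and 0.38. The list then held 0 higher genes without any of those 3, and 3 lower genes without WT library 3.

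Among 21 genes for negative regulators of ErbB signalling, 20 were tested, 4 were higher, 9 lower and 7 not called, with a median log2 fold change of -0.06. The number higher was 2 without KO library 3 or WT library 1 or 2. *Lrig1*, a membrane protein that promotes degradation of ErbB receptors, fell to 19.7% of the WT level, with 6452, 5116 and 5428 reads in WT against 944, 1195 and 959 reads in KO (log2 KO/WT ratio -2.35 with standard error 0.13, adjusted p = 3.14e-06, edgeR). *Spry1*, a feedback inhibitor of the RAS to ERK branch, fell to 43.2% (log2 KO/WT ratio -1.21 with standard error 0.18, adjusted p = 0.00056, edgeR). *Ubash3b*, which encodes a phosphatase that binds the ubiquitin ligase Cbl, rose 11.6-fold from 22, 25 and 13 counts to 228, 194 and 220 (adjusted p = 7.29e-06, edgeR). Which way its product acts on ErbB receptors was not tested here, so its rise is not read as more negative regulation. *Dusp4*, an ERK phosphatase gene, had 2, 3 and 0 reads in WT against 15, 24 and 34 reads in KO, at least 8.11-fold higher against a floor of 3 counts per library (adjusted p = 0.000952, edgeR).

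Of the 15 genes in the list of immediate early targets, all tested, 7 were higher, 1 was lower and 7 were not called. Among all genes tested, 31.8% were called higher and 30.2% lower. The 7 not called were *Fos*, *Fosb*, *Jun*, *Junb*, *Ier2*, *Phlda1* and *Etv4*, named here after their values were seen. The list also took in later targets, *Fosl1*, *Etv4*, *Etv5* and *Plaur*, so its counts and median do not stand for immediate early genes alone. The median log2 fold change of 0.75 was the highest of the lists. Setting genes at the floor in WT to their lower bounds could not change it, because those bounds also lie above the median. *Fosl1*, an AP-1 subunit gene, had 1, 1 and 0 reads in WT against 120, 41 and 243 reads in KO, at least 44.9-fold higher (adjusted p = 0.000254, edgeR). *Egr3*, a zinc finger factor gene, had 2, 0 and 2 reads in WT against 113, 35 and 149 reads in KO, at least 33.0-fold higher (adjusted p = 0.00024, edgeR). *Ier3* sat at the median of the list and was not a stable call (log2 KO/WT ratio 0.75 with standard error 0.27, adjusted p = 0.0364, edgeR). Its groups overlapped, and the call was lost under 6 alternatives, among them without WT library 1 or 2 or KO library 1 or 3. *Etv5*, an ETS factor gene, fell to 40.8% of the WT level (log2 KO/WT ratio -1.29 with standard error 0.29, adjusted p = 0.00492, edgeR). Leukocyte markers moved with these genes, as 5 of 7 tested were higher and 1 lower in KO, with *Ptprc* at 13, 5 and 8 reads in WT against 105, 87 and 123 reads in KO. The summed level of all 8 was 271 to 347 CPM in WT and 267 to 342 CPM in KO, but *Itgam*, the marker that was lower, made up most of it, with means of 266 CPM in WT and 175 CPM in KO. The other 7 summed to 37.3 to 39.9 CPM in WT and 88.2 to 140 CPM in KO. Most of that WT sum was *Cd68*, which was not called, with means of 29.6 CPM in WT and 31.5 CPM in KO (adjusted p = 0.627, edgeR). The part of leukocytes in the immediate early and ligand results was not tested.

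**Figure D5:**
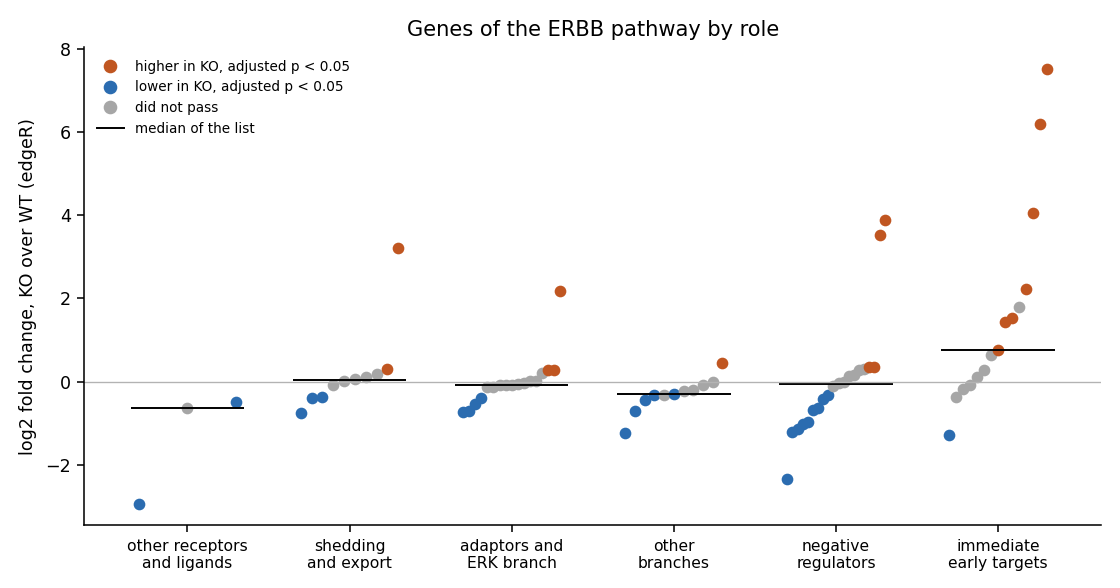
log2 fold changes of KO over WT from edgeR for the 76 tested genes of the pathway lists, which do not include the 10 members, with each gene a point coloured by its call and each list's median a bar. Values of *Dusp4*, *Fosl1* and *Egr3*, at or under 3 counts in WT, depend on the prior count of the fit; the median bar of the immediate early list, at 0.75, is the highest and that of the other receptors and ligands, at -0.64, the lowest.

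Markers of other cells that could carry these mRNAs moved as follows. The 8 stromal markers summed to 13.3 to 16.9 CPM in WT and 15.0 to 24.5 CPM in KO, with 4 of 5 tested higher and 1, *Pdgfra*, lower. *Lum*, at 0 in every WT library and at 2, 4 and 1 counts in KO, was not tested. *Pdgfra* made up most of the WT sum, with means of 13.1 CPM in WT and 1.21 CPM in KO, and the other 7 summed to 0.69 to 2.84 CPM in WT and 13.6 to 23.5 CPM in KO. The 3 endothelial markers analysed summed to 0.046 to 0.237 CPM in WT and 0.810 to 0.897 CPM in KO, with *Kdr* at 0 in every WT library. The 6 Schwann cell and melanocyte markers, from cells that express *Erbb3* and neuregulins, summed to 9.80 to 12.5 CPM in WT and 6.18 to 6.89 CPM in KO, with 3 of 4 tested lower, beside 107 to 150.0 CPM as group means of *Erbb3*. Of the conjunctival and goblet cell markers 5 of 5 tested were higher, of the epidermal markers 5 of 5 were higher, and of the corneal markers 6 of 7 were lower. Whether these shifts enter the changes in *Egfr*, *Erbb3*, *Nrg1*, *Areg* and *Ereg* was not tested, and genotype and cell make-up cannot be told apart in this design.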

How the data were processed

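RNA of corneal epithelium at 6 months of age was sequenced in 6 libraries, 3 WT and 3 KO. Per the labels and the study's methods, the authors aligned reads with Bowtie2 (version 2.2.5), quantified genes with RSEM (version 1.2.12) and deposited estimated counts per gene, without normalization. The authors also deposited FPKM, scaled by gene length and library total, and TPM, which summed to 1000000 in each library. The log2 fold changes and the p-values and q-values of the authors' own DESeq2 comparison are in the deposited table too and were not used, nor were their group means. The labels name build mm9, whereas the chromosome accessions of the table belong to GRCm38, so coordinates are given in GRCm38. The labels and the methods name different library kits and neither states strand. RSEM shares reads among similar sequences, and 34.1% to 36.1% of the nonzero estimated counts were not whole.

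Estimated counts were rounded and fitted with edgeR (version 4.0.16, R 4.3.3), with filterByExpr, TMM factors (0.952 to 1.05), genotype as the only term and the quasi-likelihood test, Benjamini-Hochberg adjusted over 13305 genes. CPM used the TMM-scaled totals, and FPKM was used to compare genes. The 17 alternatives were DESeq2 (version 1.42.0), RLE size factors, library totals only, TMM without the 20 highest genes, no filter, a filter at a mean count of 50, the robust dispersion fit, limma (version 3.58.1) on log2(FPKM + 1) and log2(FPKM + 0.1), a length correction, a replicate block and each library left out. The code was tested on simulated data. Named genes were all members, *Rela*, all other receptor and ligand genes, and per pathway list the 2 highest and 2 lowest fold changes among genes called, and further genes are named as such. The members and lists were chosen with earlier results of these data known. The libraries were treated as independent samples as the study describes them, and p-values measure the spread between them. Counting floors cover counting error only. No list was tested as a set. Protein sequences were not used here.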

Additional observations from a re-analysis of the deposited data

How the results depend on the processing

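*Egfr*, *Erbb3*, *Nrg1*, *Areg* and *Ereg* kept their direction and their call under all 17 alternatives, with log2 fold changes of -1.06 to -0.73 for *Egfr*, -0.60 to -0.34 for *Erbb3*, -2.48 to -1.83 for *Nrg1*, 1.24 to 1.96 for *Areg* and 0.79 to 1.43 for *Ereg*. *Btc* ranged from -0.32 to 0.034 with single replicates left out and turned to 0.034 without WT replicate 3, the only change of sign, and *Erbb2* passed as lower under 5 alternatives, *Tgfa* as higher under 3, *Hbegf* under 2 and *Epgn* under 1. The number of members called higher was 2 to 3 with single libraries left out. WT and KO samples share replicate numbers but came from different mice, and the numbers were not taken as pairs. Over all genes tested, the correlations of same-numbered samples' deviations were 0.029, -0.003 and 0.061. These values do not settle pairing for the members, and all 6 EGFR ligands were highest in replicate 3 of both genotypes. With a replicate block, 4 members were called higher, *Hbegf* (adjusted p = 0.015, edgeR) and *Tgfa* (adjusted p = 0.038) joining, and 4149 genes were higher and 3934 lower in all, against 4231 and 4022. The pathway genes called numbered 12 to 20 as higher and 16 to 27 as lower. The sum of ligand FPKM in KO over WT was 1.24 to 1.79 over its alternatives. The cause of these shifts was not tested. With 3 samples per group, the calls on *Erbb2*, *Epgn*, *Hbegf* and *Tgfa* turned on single libraries. Those on *Erbb2*, *Hbegf* and *Tgfa* also turned on the method with every library kept. *Erbb4* and *Nrg3* lay at the counting floor.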

Other observations

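4 of the EGFR ligand genes lie side by side on chromosome 5, *Epgn*, *Ereg*, *Areg* and *Btc* in that order, within 375 kb. The gaps are 39.4 kb from *Epgn* to *Ereg*, 45.9 kb from *Ereg* to *Areg* and 209 kb from *Areg* to *Btc*. The other genes around them were looked at after the ligands' values were seen, and they are given as values only. Within 500 kb on either side the table holds 11 genes besides these 4, of which 7 were tested. On the side of *Epgn* lie chemokine genes that were higher in KO in edgeR's test. *Ppbp*, a platelet chemokine gene, had 1, 13 and 3 reads in WT against 442, 1124 and 1116 reads in KO (adjusted p = 2.24e-05, edgeR). *Cxcl5*, a neutrophil chemokine gene, had 0 counts in each WT library and 33, 72 and 63 in KO, at least 18.7-fold higher against 3 counts per library (adjusted p = 0.000182, edgeR). *Cxcl3* had at most 1 count in WT and 12, 35 and 28 in KO, at least 8.33-fold higher, and *Cxcl2* had 1, 10 and 13 reads in WT against 15, 74 and 51 reads in KO (adjusted p = 0.013, edgeR). The region did not move one way, since *Rassf6* fell by 1.19 on the log2 scale (adjusted p = 0.000589, edgeR) and *Mthfd2l*, which lies between *Cxcl2* and *Epgn*, fell by 0.60 (adjusted p = 0.00696, edgeR). *Parm1*, on the far side of *Btc*, had a log2 fold change of -0.54 and did not pass (adjusted p = 0.0532, edgeR). It passed under 6 of the 17 alternatives. Of the removals of single libraries, only that of WT replicate 3 was among them, at -0.68 (adjusted p = 0.0242, edgeR).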
